A study of Mus musculus with 6 samples.

Results

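The Eph receptors and ephrins described here are 10 genes taken by name from the count tables: the EphA receptor genes Epha3, Epha4, Epha5 and Epha7, the EphB receptor genes Ephb1, Ephb2 and Ephb3, and the ephrin genes Efna5, Efnb2 and Efnb3. They are 10 of the 47643 genes in the tables and 10 of the 22 Eph and ephrin genes measured. RNA came from the dorsal root ganglia of CD-1 mice at embryonic day 13. In 3 libraries the lentivirus carried the control hairpin (shControl), and in 3 the hairpin named for UHRF1 (shUHRF1). Every library carried a lentivirus, and none came from an untreated ganglion. The series was designed to ask which transcripts change in uninjured neurons when UHRF1, a reader of hemimethylated CpG sites, is knocked down. The labels number the libraries 1 to 3 within each group without saying whether they were separate cultures, so each p-value reflects only how these 6 libraries vary, part of which may be technical.

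Eph receptors are receptor tyrosine kinases that bind ephrins on neighbouring cells, so both partners act at cell contacts. EphA receptors mostly bind the lipid-anchored ephrin-As and EphB receptors mostly bind the transmembrane ephrin-Bs, with EphA4 also binding ephrin-Bs. Binding signals into the receptor-bearing cell (forward signalling) and into the ephrin-bearing cell (reverse signalling), and both repel or steer growing axons and sort cells at boundaries, among them the axons of developing sensory and motor neurons.

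The libraries held 15599776 to 22382813 reads in genes. Uhrf1 itself had 8, 6 and 5 reads in shControl and 2, 1 and 5 in shUHRF1, too few to pass the count filter, so the knockdown was not resolved at this depth. Sensory neuron genes were detected in every library: Prph was at 4554 to 5849 CPM (reads scaled to a common library size), and Isl1 at 71.8 to 93.6 CPM. For the marker counts that follow, 11.6% of all tested genes were called higher in shUHRF1 and 12.4% lower. Of the 24 neuronal markers, all tested, 3 were called higher and 2 lower (5 and 4 with the replicate number as a block). Those lower were Tubb3, at 59.5% of its shControl mean, and the growth cone gene Gap43, at 27.3%, and those higher included the vesicular glutamate transporter gene Slc17a6, at 242%. Transcripts of other cells moved with the hairpin: 10 of 16 tested Schwann cell and satellite glia markers and 10 of 11 tested fibroblast and meningeal markers were called higher in shUHRF1. A marker that passes the count filter only through the group where it is high has to differ, so these shares support nothing by themselves. The glial factor Sox10 was at 0.174 to 0.452 CPM in shControl and 1.52 to 2.85 CPM in shUHRF1. Over the whole lists, summed levels overlapped for glia, at 605 to 701 CPM in shControl and 256 to 761 CPM in shUHRF1, mostly from S100b, Mbp, Cadm4 and Pmp22. Of these Mbp was called lower, the only glial marker that was, from 135 ± 16.9 to 69.9 ± 21.4 CPM (SD, n = 3), and the means of S100b, Cadm4 and Pmp22 in shUHRF1 were 68.8%, 90.1% and 48.1% of those in shControl, not called. They were 824 to 999 CPM and 1074 to 1306 CPM for fibroblast and meningeal markers, most of it Vim. Macrophage markers (5 of 8 tested called higher) summed to 6.59 to 12.9 CPM in shControl and 17.7 to 47.3 CPM in shUHRF1. Endothelial and mural markers (3 of 8 higher) summed to 44.3 to 47.3 CPM and 42.3 to 62.9 CPM, and the 24 neuronal markers to 30060 to 35530 CPM and 25120 to 31070 CPM. The fibroblast marker Tcf21 was at 0 in all 6 libraries. The part of these cells in the changes below was not tested, and in bulk RNA fewer cells of a type and less RNA per cell cannot be told apart.

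UHRF1 acts at CpG sites, so the promoters of the 4 genes that fell in shUHRF1 are shown with every CpG in capitals. Each covers 250 bases before and 50 bases after the annotated start (RefSeq, GRCm38.p6) and is written 5′ to 3′ on the gene's own strand, here the minus strand. Epha4 lies at chr1:77515039-77515338, Epha5 at chr5:84417333-84417632, Ephb2 at chr4:136835963-136836262 and Efna5 at chr17:62881268-62881567.
Epha4: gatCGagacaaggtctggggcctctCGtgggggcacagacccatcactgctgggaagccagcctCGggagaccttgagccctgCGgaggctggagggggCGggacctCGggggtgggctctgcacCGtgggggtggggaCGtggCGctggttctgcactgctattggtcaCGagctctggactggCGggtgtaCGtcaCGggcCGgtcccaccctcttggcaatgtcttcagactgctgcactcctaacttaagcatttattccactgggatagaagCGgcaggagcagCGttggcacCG
Epha5: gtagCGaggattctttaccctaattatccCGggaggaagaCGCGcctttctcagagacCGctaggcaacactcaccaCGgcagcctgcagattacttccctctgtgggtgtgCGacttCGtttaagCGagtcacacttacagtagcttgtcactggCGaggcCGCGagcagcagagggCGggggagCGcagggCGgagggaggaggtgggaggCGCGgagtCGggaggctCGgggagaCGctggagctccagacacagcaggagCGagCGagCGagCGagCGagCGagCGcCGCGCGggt
Ephb2: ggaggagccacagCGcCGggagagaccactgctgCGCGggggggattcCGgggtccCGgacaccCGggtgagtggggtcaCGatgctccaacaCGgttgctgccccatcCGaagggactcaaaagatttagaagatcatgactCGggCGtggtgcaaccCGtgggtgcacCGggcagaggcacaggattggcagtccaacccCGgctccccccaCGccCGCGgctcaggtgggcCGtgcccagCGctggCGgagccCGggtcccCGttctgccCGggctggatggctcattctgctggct
Efna5: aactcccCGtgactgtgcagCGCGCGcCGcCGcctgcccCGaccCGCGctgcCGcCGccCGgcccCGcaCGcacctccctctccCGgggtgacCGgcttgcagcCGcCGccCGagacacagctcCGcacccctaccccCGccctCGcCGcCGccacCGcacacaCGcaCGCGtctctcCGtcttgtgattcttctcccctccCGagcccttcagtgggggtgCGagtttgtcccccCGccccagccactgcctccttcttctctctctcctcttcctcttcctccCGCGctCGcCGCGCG

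These windows held 17 CpGs for Epha4, 24 for Ephb2, 30 for Epha5 and 38 for Efna5, against a median of 7 and an upper quartile of 20 over 32851 promoters of the same length. Of the 10 genes, 9 had a promoter in the table. The 5 that were not called held 14 CpGs (Ephb1), 18 (Epha3), 23 (Ephb3), 28 and 27 (the 2 starts of Epha7) and 35 (Efnb2). The ranges of called and uncalled genes therefore overlapped, and both lay above the median of all promoters. As the series also concerns REST, parts of its binding element were searched on both strands. CAGCACC was in 0 of the 9 genes' promoters and in 7.14% of all promoters. GGACAG was in 3 of them, Epha3, Ephb1 and Efnb2, and in 22.2% of all promoters. These are matches of letters only, and methylation was not measured.

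Of the 10 genes, 4 fell in shUHRF1, 0 rose and 6 were not called, at an adjusted p below 0.05 in edgeR's quasi-likelihood test with Benjamini-Hochberg adjustment over 15573 genes. Those that fell were the receptors Epha4, Epha5 and Ephb2 and the ligand Efna5, all to between 31.3% and 50.7% of their shControl mean. Among all tested genes, 24.0% were called, 12.4% lower and 11.6% higher. That split depended on the scaling, at 1928 lower and 1807 higher here and 1378 lower and 2512 higher with upper-quartile factors, under which the same 4 of the 10 fell and Epha3 also passed as higher. The called genes were among the better measured: 6 of the 10 averaged 16 CPM or more and 4 of these were called lower, where 19.9% of tested genes at that level were. All 10 passed the count filter. Their median log2 fold change was -0.66, beside 0.02 over all tested genes. This median was not firm, at -0.77 to -0.29 under the alternatives, in which 9 or 10 of the genes were tested. The same 4 were called lower with the replicate number as a block, a fit that called 31.0% of all genes. In the plot of levels by library, the groups of Epha4, Epha5, Ephb2 and Efna5 separate with shUHRF1 below, as they did for 22.4% of tested genes. The groups of Epha3 separate with shUHRF1 above, as they did for 3365 of the 15573 tested genes.

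**Figure D1:**
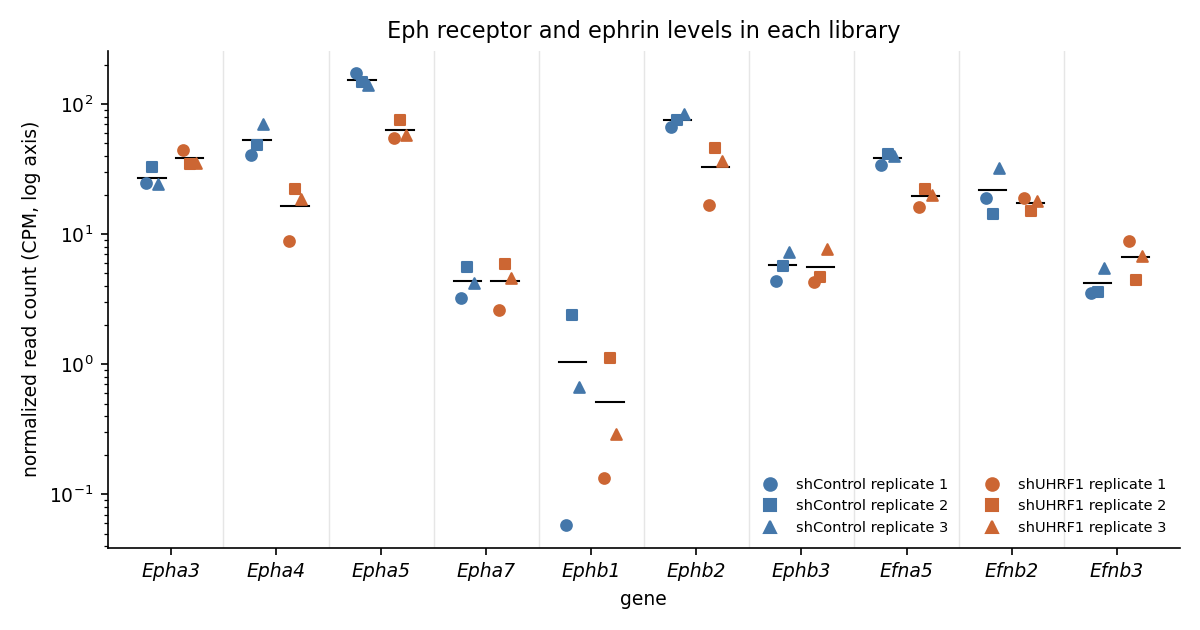
Level of each of the 10 genes in each library, in CPM on a log axis; blue is shControl, orange is shUHRF1, the marker shape gives the replicate number and the line is the group mean. All 3 shUHRF1 libraries lie below all 3 shControl libraries for Epha4, Epha5, Ephb2 and Efna5, and above them for Epha3.

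Epha5 (ENSMUSG00000029245.16, chromosome 5, 84054761 to 84417382, minus strand, GRCm38), a receptor of ephrin-As on growing axons, had the most reads of the 10. It had 172, 147 and 141 CPM with shControl (libraries 1, 2 and 3, the order used throughout) against 54.5, 76.0 and 58.0 CPM with shUHRF1. The groups were far apart, and the first shUHRF1 library was the lowest. The mean went from 154 ± 16.5 to 62.8 ± 11.5 CPM (SD, n = 3), or -1.29 ± 0.16 on the log2 scale (SE; adjusted p = 0.00173, edgeR). The shControl mean rested on 8205 reads.

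Epha4 (ENSMUSG00000026235.14, chromosome 1, 77367185 to 77515088, minus strand), the receptor that binds both ephrin classes and is best known for excluding motor and corticospinal axons from ephrin territory, had the largest fall of the 10. It had 40.7, 48.2 and 70.3 CPM with shControl against 8.83, 22.3 and 18.6 CPM with shUHRF1. The shUHRF1 library numbered 1 was the lowest by a wide margin, and shControl numbered 3 the highest. The means were 53.1 ± 15.4 and 16.6 ± 6.97 CPM (SD, n = 3), or -1.68 ± 0.34 on the log2 scale (SE; adjusted p = 0.0115, edgeR). Without the shUHRF1 library numbered 1 the log2 fold change was -1.38, still called.

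Ephb2 (ENSMUSG00000028664.14, chromosome 4, 136647539 to 136835988, minus strand), a receptor of ephrin-Bs at synapses and in axon fasciculation, had 66.3, 74.9 and 84.4 CPM with shControl against 16.8, 45.9 and 36.4 CPM with shUHRF1. The shControl libraries were alike and the shUHRF1 libraries differed 2.72-fold among themselves, again with number 1 lowest. The means were 75.2 ± 9.06 and 33.1 ± 14.8 CPM (SD, n = 3), or -1.19 ± 0.32 on the log2 scale (SE; adjusted p = 0.031, edgeR). This was the least secure of the 4 calls: the adjusted p was 0.0632, 0.0658 and 0.0969 without shControl replicate 1, 2 or 3 and 0.0789 without shUHRF1 replicate 3, with a log2 fold change of -1.29, -1.21, -1.11 and -1.27.

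Efna5 (ENSMUSG00000048915.12, chromosome 17, 62604184 to 62881317, minus strand) encodes ephrin-A5, a lipid-anchored ligand of EphA receptors that repels axons in topographic maps. It had 34.2, 41.4 and 39.9 CPM with shControl against 16.2, 22.3 and 20.0 CPM with shUHRF1. Both groups were tight and did not overlap. The means were 38.5 ± 3.78 and 19.5 ± 3.08 CPM (SD, n = 3), or -0.98 ± 0.15 on the log2 scale (SE; adjusted p = 0.00456, edgeR).

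Set against its own shControl mean, each of these 4 genes was lowest in the shUHRF1 library numbered 1, at 16.6% for Epha4, 22.4% for Ephb2, 35.5% for Epha5 and 42.1% for Efna5. The values in the shUHRF1 library numbered 2 were 42.1%, 61.0%, 49.5% and 58.0% in the same order. Over all 10 genes, this first shUHRF1 library had the lowest value of the 6 libraries for 6 genes, the called 4 and also Epha7 and Ephb3. Its summed glial markers were the lowest too, at 256 CPM, and what sets the library apart was not tested. Without it the same 4 genes were called.

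**Figure D2:**
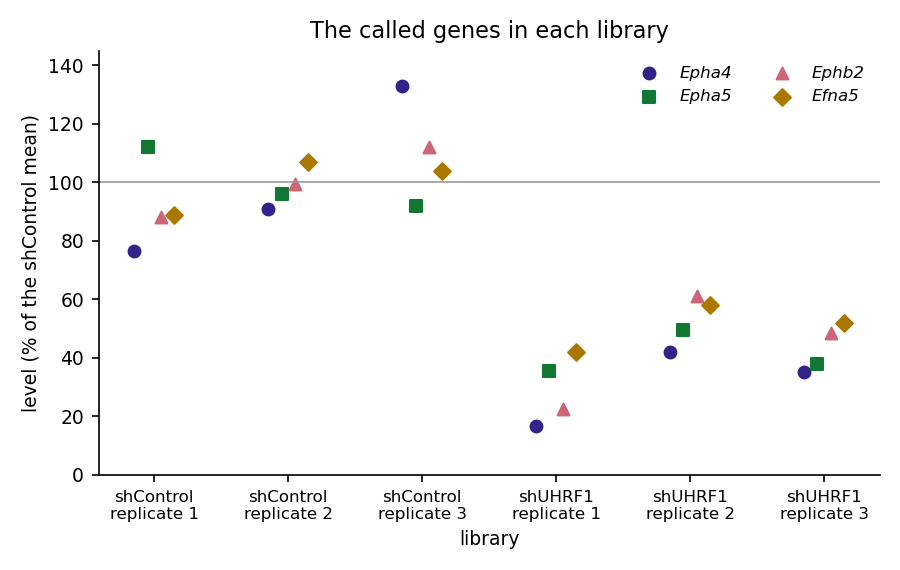
Level of the 4 called genes in each library as a percentage of the gene's shControl mean (line at 100). The shUHRF1 libraries lie between 16.6% and 61.0%, with replicate 1 lowest for each gene, and the shControl libraries between 76.6% and 133%.

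Epha3 (ENSMUSG00000052504.6, chromosome 16, 63543534 to 63864175, minus strand), a receptor of ephrin-A5, was not called. It had 24.8, 32.6 and 24.2 CPM with shControl against 44.5, 34.8 and 35.5 CPM with shUHRF1. The shUHRF1 libraries were all higher, though only narrowly above the second shControl library. At 0.50 ± 0.16 on the log2 scale (SE) the difference missed the threshold (adjusted p = 0.0631, edgeR). It passed with upper-quartile factors (0.035), with the stricter count filter (0.0472), without shControl replicate 2 (0.0386) and on the library pairs numbered 1 and 3 (0.0363), with a log2 fold change of 0.54 to 0.70.

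Epha7 (ENSMUSG00000028289.12, chromosome 4, 28813131 to 28967499, plus strand), an EphA receptor that also occurs in forms without the kinase, had 3.25, 5.62 and 4.25 CPM with shControl against 2.60, 5.93 and 4.59 CPM with shUHRF1. The groups interleaved, and libraries of the same number were close. The log2 fold change was 0.00 ± 0.34 (SE), with an edgeR adjusted p of 0.997, and took either sign under other settings.

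Among the remaining EphB receptors, Ephb3 (ENSMUSG00000005958.14, chromosome 16, 21204755 to 21223305, plus strand), which acts with Ephb2 in axon pathfinding, had 4.41, 5.69 and 7.36 CPM with shControl against 4.30, 4.70 and 7.73 CPM with shUHRF1. The groups overlapped over nearly their whole range. Its log2 fold change of -0.06 ± 0.30 (SE) did not pass (edgeR adjusted p = 0.906) and also took either sign. Ephb1 (ENSMUSG00000032537.14, chromosome 9, 101922128 to 102354693, minus strand), a receptor of ephrin-Bs in axon crossing at the midline, was close to the detection limit, with 1, 37 and 14 reads in shControl and 3, 19 and 6 in shUHRF1. In both groups the library numbered 2 held most of the reads. The log2 fold change of -1.04 ± 1.06 (SE) did not pass (edgeR adjusted p = 0.521) and moved to 0.36 when shControl replicate 2 was left out and to -2.26 when shUHRF1 replicate 2 was. Of the exons of Ephb1, 2.2% overlap a lincRNA gene, Gm26846, on the opposite strand, and the counting is not stated to use strand.

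The transmembrane ligand Efnb2 (ENSMUSG00000001300.16, chromosome 8, 8617434 to 8661242, minus strand), which signals into its own cell and also marks arterial endothelium, had 19.1, 14.3 and 32.2 CPM with shControl against 18.8, 15.0 and 17.9 CPM with shUHRF1. Apart from the third shControl library, which was high, the values were alike. The log2 fold change of -0.34 ± 0.28 (SE) did not pass (edgeR adjusted p = 0.42) and was 0.04 without shControl replicate 3. Efnb3 (ENSMUSG00000003934.5, chromosome 11, 69554092 to 69560205, minus strand), an ephrin-B that acts as a midline barrier to EphA4-bearing axons, had 3.54, 3.62 and 5.54 CPM with shControl against 8.83, 4.47 and 6.77 CPM with shUHRF1. The shUHRF1 values were mostly higher but overlapped those of shControl. Its log2 fold change of 0.66 ± 0.31 (SE) did not pass (edgeR adjusted p = 0.157).

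To compare genes with each other, levels were divided by the length of the annotated exons, as CPM per kb. In shControl, Efna5 (9.55) and Epha5 (9.18) led, followed by Epha4 (6.59), Ephb2 (5.97), Efnb2 (3.19), Epha3 (3.13), Efnb3 (1.33), Ephb3 (0.876), Epha7 (0.443) and Ephb1 (0.148 CPM per kb). The ranges over 3 libraries overlapped between neighbours from Efna5 through Ephb2, between Efnb2 and Epha3 and between Epha7 and Ephb1, and the other neighbours were apart. The 4 called genes were thus the 4 most abundant per length in shControl. In shUHRF1, Efna5 remained highest at 4.84 CPM per kb. It was followed by Epha3 at 4.41 CPM per kb, then Epha5 at 3.75, Ephb2 at 2.62, Efnb2 at 2.52, Efnb3 at 2.10 and Epha4 at 2.06 CPM per kb. From Efna5 through Epha4 the shUHRF1 ranges of all neighbours overlapped, so the order of neighbours in shUHRF1 was not resolved. The ranges of Efna5 and Epha3, from 4.02 and 4.01 CPM per kb up, lay above those of Ephb2, Efnb2, Efnb3 and Epha4, at most 3.64. That of Epha5, from 3.26 CPM per kb up, lay above those of Efnb2, Efnb3 and Epha4, at most 2.77. The length used is that of all annotated exons joined, 16739 bases for Epha5, so a level per kb depends on which transcripts are annotated.

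Not all of the most abundant Eph receptor transcripts are among the 10. Of the 12 other Eph and ephrin genes, 10 passed the count filter, of which 3 fell, 0 rose and 7 were not called. Shares called over all tested genes were 12.4% lower and 11.6% higher. The median log2 fold change of the 10 was -0.52. It was -0.68 to -0.19 under the alternatives, in which 8 to 12 of these genes were tested. The 7 not called were Epha8, Epha10, Ephb4, Ephb6, Efna3, Efna4 and Efnb1, with log2 fold changes of -1.45, 0.15, 1.36, -0.67, -0.03, 0.81 and -0.44. Epha1 and Epha2 did not pass the filter, with at most 22 reads in any library. Epha6, an EphA receptor of the nervous system, was the most abundant Eph receptor per length, at 40.01 CPM per kb in shControl. It had 228, 218 and 189 CPM with shControl against 149, 143 and 118 CPM with shUHRF1, and fell by 0.63 ± 0.13 on the log2 scale (SE, edgeR adjusted p = 0.0126). Efna1, a lipid-anchored ephrin like Efna5, had 28.4, 20.1 and 29.6 CPM with shControl against 3.41, 9.34 and 8.22 CPM with shUHRF1, and fell by 1.90 ± 0.35 (SE, adjusted p = 0.00797).

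Efna2, another ephrin-A, went from 10.7 ± 0.668 to 7.02 ± 0.611 CPM (SD, n = 3), or -0.61 ± 0.16 on the log2 scale (SE; adjusted p = 0.0314, edgeR). Its call held in 6 of 16 alternatives. It was lost without any 1 of shControl replicates 1, 2 and 3 (0.0693, 0.0664 and 0.117) or shUHRF1 replicates 1 and 3 (0.0602 and 0.0771). Epha8, which had 147, 114 and 148 CPM with shControl against 17.0, 75.6 and 57.2 CPM with shUHRF1, lay just beyond the threshold. The change was -1.45 ± 0.45 on the log2 scale (SE; adjusted p = 0.0501, edgeR). With the replicate block it was -1.66 and passed (0.028), and without shUHRF1 replicate 1, the lowest library, it was -1.04 and passed (0.00701). Epha8 passed in 7 of 16 alternatives. It missed in the others, among them DESeq2 (0.0567) and the fits without shControl replicate 1, 2 or 3 (0.121, 0.0763 and 0.128).

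Ephb4, the endothelial receptor of ephrin-B2, had 3, 12 and 10 reads in shControl and 22, 21 and 30 in shUHRF1. Its log2 fold change of 1.36 ± 0.49 (SE) did not pass (edgeR adjusted p = 0.0787) and passed with the replicate block (0.0344). Endothelial markers went in more than 1 direction: Eng had 3, 3 and 5 reads in shControl and 24 in each shUHRF1 library, Kdr 5, 2 and 0 reads and 8, 6 and 10, and Emcn 0 in each and 2, 3 and 5. Pecam1 had 12, 16 and 11 reads and 15, 11 and 9, and Tie1 1, 1 and 2 reads and 0 in each. Their part in the values of Ephb4 was not tested. With the block, 10 of the 12 other genes were tested, of which 4 were lower and 1 higher. That fit called 2440 lower and 2380 higher of all 15573 tested genes. Without shUHRF1 replicate 2, 5 of the 10 tested were lower and 0 higher, beside 2074 and 1814 of all 16078 tested genes.

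**Figure D3:**
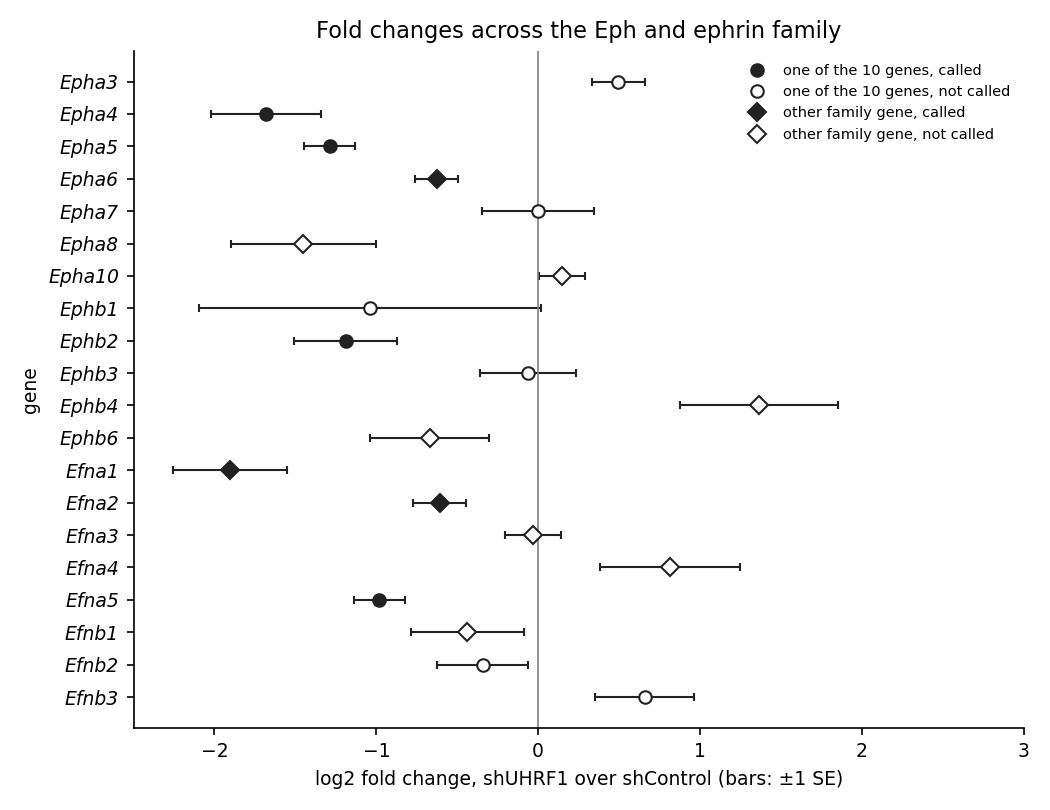
Log2 fold change of shUHRF1 over shControl for the 20 Eph and ephrin genes that passed the count filter, ordered by class, with bars of 1 SE. Filled symbols are called at an adjusted p below 0.05. The 7 filled symbols (Epha4, Epha5, Epha6, Ephb2, Efna1, Efna2 and Efna5) all lie below 0. Of all tested genes, 12.4% were called lower and 11.6% higher.

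Summed per length over all genes of a class, EphA receptor transcripts had 95.3, 86.9 and 89.8 CPM per kb in shControl and 44.3, 57.7 and 47.7 CPM per kb in shUHRF1. The summed EphA level in shUHRF1 was 55.0% of that in shControl, and the groups were apart. Most of this sum came from genes outside the 10, Epha6 and Epha8, at 40.01 and 28.93 CPM per kb in shControl. Of these, Epha8 was not called. The EphB sum was 18.9, 21.2 and 21.95 CPM per kb in shControl and 5.96, 17.8 and 13.3 CPM per kb in shUHRF1. Most of the EphB sum came from Ephb6, at 13.58 CPM per kb in shControl, which was not called and whose groups overlapped. The ephrin-A sum was 47.5, 50.03 and 60.8 CPM per kb in shControl and 30.0, 37.8 and 39.4 CPM per kb in shUHRF1, 67.6% by the means. Both of these sums were lower in each shUHRF1 library than in each shControl library. The ephrin-B sum overlapped, at 9.004, 10.9 and 13.4 CPM per kb in shControl and 7.87, 10.1 and 10.5 CPM per kb in shUHRF1. The mean ephrin-B sum in shUHRF1 was 85.5% of that in shControl.

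Genes that carry the signal of Eph receptors were taken as a list of 33, all of which passed the count filter: 10 fell, 3 rose and 20 were not called, with a median log2 fold change of -0.35. The shares over all tested genes were 12.4% lower and 11.6% higher. Chn1, which encodes alpha-chimaerin, a Rac inactivator required for EphA4-driven growth cone collapse, fell most. It had 348, 282 and 334 CPM with shControl against 55.2, 86.5 and 79.1 CPM with shUHRF1, or -2.13 ± 0.18 on the log2 scale (SE; adjusted p = 0.000653, edgeR). Its paralogue Chn2, encoding beta-chimaerin, went the other way. It had 6.38, 6.08 and 7.93 CPM with shControl against 41.7, 24.7 and 25.3 CPM with shUHRF1, or 2.17 ± 0.24 on the log2 scale (SE; adjusted p = 0.00142, edgeR). In shUHRF1 the mean level was 11.6 CPM per kb for Chn1 and 5.26 CPM per kb for Chn2.

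The small GTPase gene Rhoa, whose product drives growth cone collapse, fell by 1.34 ± 0.15 on the log2 scale (SE, edgeR adjusted p = 0.00154). Tiam1, a Rac exchange factor that binds EphA receptors, fell from 25.8 ± 2.18 to 14.1 ± 0.372 CPM (SD, n = 3; log2 fold change -0.87 ± 0.13, SE). Ptpro, a phosphatase that dephosphorylates Eph receptors, fell from 201 ± 30.5 to 84.4 ± 13.4 CPM (SD, n = 3; log2 fold change -1.25 ± 0.16, SE). The genes that fell thus included both an activator and an inactivator of Rac. With the replicate block 15 fell and 4 rose, where 2440 fell and 2380 rose of all 15573 tested genes. Without shControl replicate 3 the counts were 5 lower and 1 higher, beside 946 and 822 of all 16166 tested genes. Without shControl replicate 1 they were 7 lower and 1 higher, beside 1085 and 933 of all 16484 tested genes.

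Of 18 genes of ephrin reverse signalling and shedding, also all tested, 3 fell, 3 rose and 12 were not called, with a median log2 fold change of -0.06. Among all tested genes 12.4% were called lower and 11.6% higher, so these counts are near the background. Grip1, a PDZ protein that binds the tail of ephrin-Bs, rose from 44.5 ± 4.34 to 81.0 ± 9.07 CPM (SD, n = 3; log2 fold change 0.87 ± 0.13, SE; edgeR adjusted p = 0.0038). Sdcbp, which encodes syntenin, another PDZ partner of ephrin-Bs, fell, with means of 199 ± 14.5 and 106 ± 6.68 CPM (log2 fold change -0.91 ± 0.11, SE; adjusted p = 0.00174). Other partners of the ephrin-B tail in the list were not called: Grip2, Pick1 and Rgs3 had log2 fold changes of 0.63, -0.06 and -0.16.

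Dock4, a Rac exchange factor, and Git1, an adaptor at focal adhesions and synapses, fell by 1.38 ± 0.15 and 1.22 ± 0.16 on the log2 scale (SE, edgeR adjusted p = 0.00116 and 0.00213). Dock1, an exchange factor for Rac that is widely used outside neurons, rose from 2, 2 and 4 reads to 27, 38 and 57 reads, or 3.74 ± 0.49 on the log2 scale (SE; adjusted p = 0.0022, edgeR). With so few shControl reads Dock1 passed the count filter only through shUHRF1, so its call has the same limit as those of the low markers above. The part of other cells in it was not tested. With the block 5 genes of this list rose and 3 fell, where 2380 rose and 2440 fell of all 15573 tested genes.

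**Figure D4:**
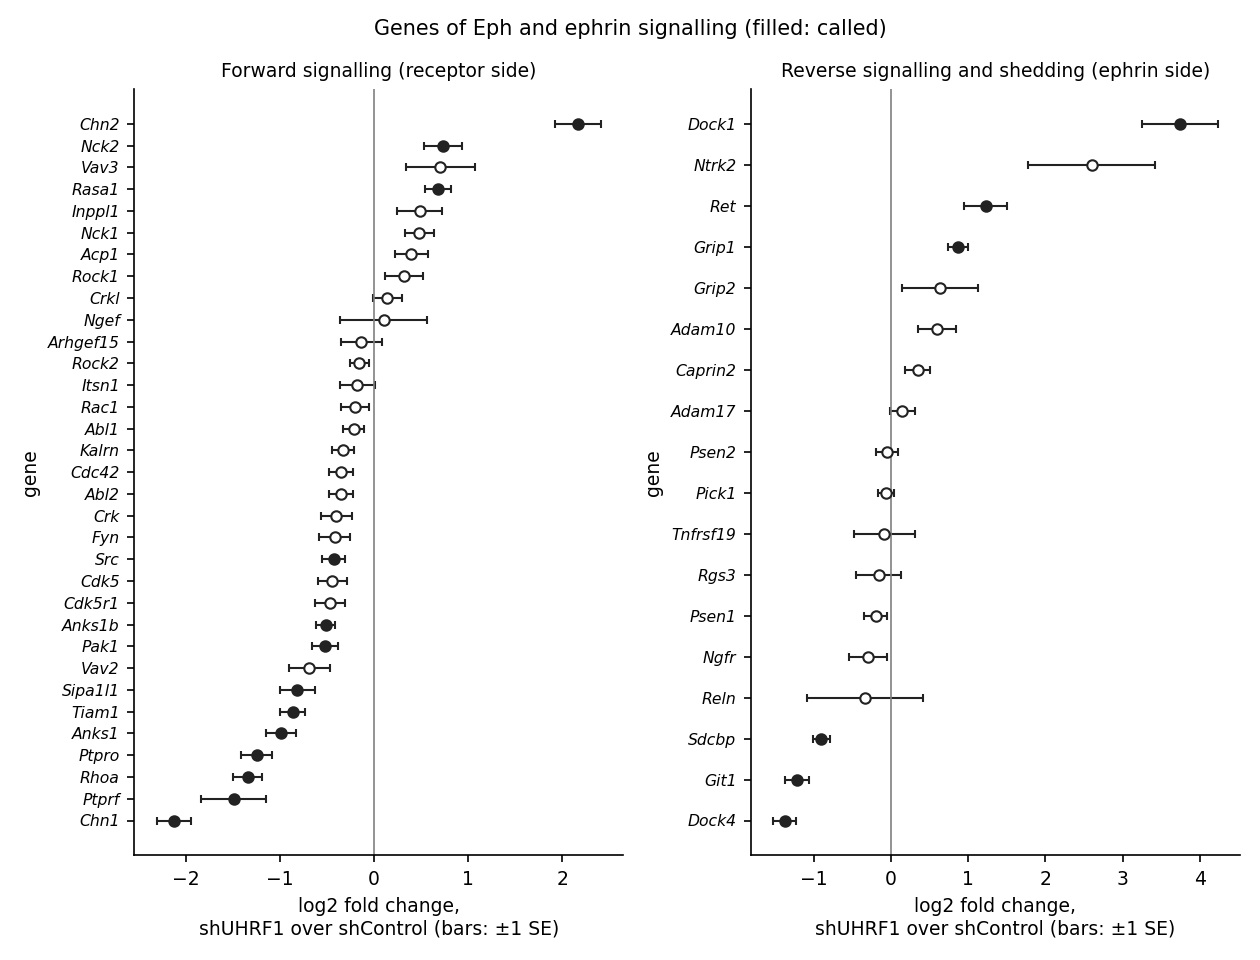
Log2 fold change of shUHRF1 over shControl for the 33 genes of Eph forward signalling (left) and the 18 genes of ephrin reverse signalling and shedding (right), sorted by value, with bars of 1 SE. Filled points are called; Chn1 at -2.13 and Chn2 at 2.17 are at the ends of the left panel, and Dock1 at 3.74 is at the top of the right panel.

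Over the 6 libraries, the protein-coding genes whose mean-centred log2(CPM + 0.5) profile was closest to that of Epha5 were Gsg1l, Fbxo25 and Actr3b, with root mean square differences of 0.054, 0.0713 and 0.0723 among the 10391 genes averaging 5 CPM or more. For Efna5 they were Slc35a2, Ago2 and Slc43a2, at 0.0489, 0.063 and 0.0642. These distances describe 6 libraries in 2 groups and were not tested.

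The 10 genes differed in how firmly their values held. Epha4, Epha5 and Efna5 were called lower in all 16 alternatives run, with log2 fold changes of -2.02 to -1.38, -1.51 to -1.16 and -1.11 to -0.86. Ephb2 was called in 12 of 16, with log2 fold changes of -1.52 to -0.87. Efnb3 was called in 0 of 16 and kept a positive log2 fold change of 0.40 to 0.90.

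**Figure D5:**
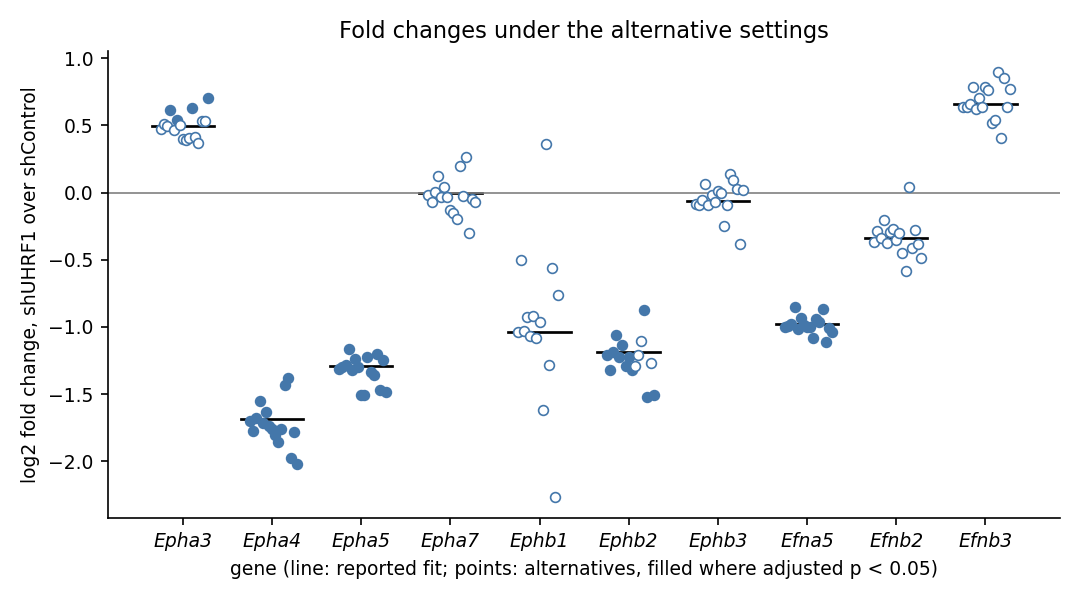
Log2 fold change of shUHRF1 over shControl for each of the 10 genes in the reported fit (line) and under each alternative (points, filled where the adjusted p is below 0.05). Points of Epha4, Epha5 and Efna5 are filled throughout and lie at or below -0.86, whereas those of Epha7 and Ephb3 lie on both sides of 0.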

How the data were processed

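Whole-number read counts per gene were deposited by the authors as 1 table per library and are raw, per the file layout. Per the submitters' processing notes, FastQC, STAR, HTSeq and DESeq2 were used with the mm10 build. Versions, the annotation release and any use of strand in counting were not given in the sources used here. Lines that name no gene were left out (8.43% to 17.2% of entries outside genes, 2.12% to 2.27% ambiguous, 30.5% to 37.3% not uniquely aligned). Symbols, positions and exon lengths came from GENCODE M21 (GRCm38, the assembly of mm10), which matched 47224 of 47643 identifiers.

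Counts were fitted with edgeR 4.0.16 in R 4.3.3 (filterByExpr defaults, TMM factors, quasi-likelihood F test, two-sided, Benjamini-Hochberg over all tested genes). CPM used TMM-scaled library totals, in which 1 read was 0.0448 to 0.0646 CPM. SEs were derived from the F statistic. The fit was tested on simulated data with known changes. The simulated libraries were independent and drawn from the fit's own model, so that test does not measure error rates in these data.

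The 10 genes and the lists were chosen with earlier results of these data known. Named from each other list were up to 5 genes with the smallest unadjusted p, and for the most abundant gene per kb and the gene with the smallest p the 3 most similar profiles. The split at 16 CPM, and markers singled out in the text, were chosen after values were seen. Alternatives were DESeq2 1.42.0, limma-voom (limma 3.58.1), RLE and upper-quartile factors, no count filter, at least 2 CPM in 3 libraries, the replicate block, an offset for exon length and GC content with and without the block, and each library left out. A fit on library pairs 1 and 3 was added after seeing the data.

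The reported fit did not pair the libraries. Only in alternatives, such as the replicate block, were the replicate numbers taken to pair them. Per gene deviations from each group's mean correlated between same-numbered libraries (0.319, 0.4 and 0.388), and not for the other pairs across groups (-0.284 to 0.001). Such deviations cancel within a group, so positive values for same-numbered libraries lower those for the other pairs. The other pairs are therefore not separate evidence of pairing. The pairing is inferred from the data and not stated by the labels.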

Additional observations from a re-analysis of the deposited data

How the results depend on the processing

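The count of genes differing between the groups was 3735 and moved to between 1768 and 3888 with 1 library left out, the largest losses being without shControl replicate 1 (2018), shControl replicate 3 (1768) and shUHRF1 replicate 3 (2171). With upper-quartile factors the split of calls was 2512 higher and 1378 lower, against 1807 and 1928, and the median over tested genes, on the log2 scale, moved from 0.02 to 0.14. Of the 10 genes, 3 to 5 were called, depending on the alternative. Uncalled genes took the other sign as follows. Epha7 had 0.002 with RLE factors, 0.12 with upper-quartile factors, 0.044 with at least 2 CPM in 3 libraries, and -0.304 to 0.266 with 1 library left out, positive without shControl replicate 2 (0.199) and without shUHRF1 replicate 1 (0.266). Ephb3 had 0.067 with upper-quartile factors, 0.009 with the offset for length and GC content, 0.021 on library pairs 1 and 3 alone, and -0.382 to 0.139 with 1 library left out, positive without shControl replicate 3 (0.139), shUHRF1 replicate 1 (0.096) or shUHRF1 replicate 2 (0.023). With 1 library left out, Ephb1 ranged from -2.263 to 0.363, positive without shControl replicate 2, and Efnb2 from -0.586 to 0.041, positive without shControl replicate 3. With the replicate block, 4820 genes were called, the same 4 of the 10 among them, and the called values were -1.74 for Epha4, -1.30 for Epha5, -1.29 for Ephb2 and -0.99 for Efna5. Beside the changes given with the results, the block changed no call among the named genes. Ephb1 was not tested with the stricter filter or on pairs 1 and 3. Ephb1, with 52 shControl reads, had the widest SE (1.06). The SEs of Epha7 and Efnb3 (0.34 and 0.31, from 232 and 233 shControl reads) were like those of Epha4 and Ephb2 (0.34 and 0.32, from 2919 and 4069).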
